A study of Rattus norvegicus with 26 samples.

Results

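Oxidative phosphorylation (OXPHOS), the mitochondrial process that makes ATP from the electrons of NADH and succinate, was examined through the genes of its 5 complexes in the dentate gyrus (DG) of the rat hippocampus. The members were chosen by gene name alone: the protein-coding genes of the mitochondrial genome, and the nuclear genes for subunits of complexes I to V. After the rows of each Ensembl gene ID were summed, 97 gene IDs with these names were found among 17910, 84 of them nuclear and 13 mitochondrial. A mean of at least 5 normalized counts was reached by 95 members and by 15595 genes in all. The 2 members under that mean were Cox8b and Cox6a2, the isoforms of heart and skeletal muscle. By complex, the tested members comprised 35 nuclear and 7 mitochondrial genes of complex I, 4 nuclear genes of complex II, 9 nuclear and 1 mitochondrial gene of complex III, 17 nuclear and 3 mitochondrial genes of complex IV, and 17 nuclear and 2 mitochondrial genes of complex V. Ndufa4 and Ndufa4l2 were placed in complex IV, where their products sit despite their names.

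The rats were male F344 rats of 6 months, and 1 poly(A) RNA library was made per rat from the DG of a single hemisphere. The Veh group (n = 10) received vehicle, the Dox group (n = 8) received the anthracycline doxorubicin (Dox), and the Dox + ABT group (n = 8) received Dox once a week and, in alternate weeks of the same course, ABT-263, a senolytic that blocks Bcl-2 family proteins. Per the study's methods, the Veh rats belonged to an ongoing study of brain aging. A treatment difference from Veh therefore cannot be told apart from any difference between that study's rats and the others. No group received ABT-263 without Dox among the libraries used here, so an effect of ABT-263 alone was not analysed. The values are normalized read counts, and sequencing depth was estimated at about 10166200 to 24327900 reads per library, with a median of 16702200 for the Veh rats, 15654000 for Dox and 15120600 for Dox + ABT.

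Complex I takes electrons from NADH and complex II from succinate, complex III passes them to cytochrome c and complex IV to oxygen. Complexes I, III and IV pump protons across the inner membrane, and complex V, the ATP synthase, lets them flow back to make ATP. The mitochondrial genome encodes core subunits of complexes I, III, IV and V, all transcribed inside the organelle, while the other subunits and the whole of complex II are encoded in the nucleus and imported, so each respiratory complex other than complex II needs transcripts of both genomes. Neurons draw most of their ATP from this pathway, and transcripts of the mitochondrial genome are abundant in brain RNA.

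Members of the nuclear set are known to share short promoter motifs. A RefSeq promoter (build GRCr8, 250 bases before to 50 after the annotated start) was matched for 69 of the 84 nuclear members. The letters CCGGAAG, the core of sites bound by ETS factors such as GABPA, stood on either strand in 19 of these 69 promoters (27.5%), against 8.75% of all 33469 promoters. GCGCATGC, a core of the NRF1 site, stood in 8 of 69 (11.6%) against 2.47%, AAGATGGC, read by YY1, in 16 of 69 (23.2%) against 3.17%, AAGGTCA, read by estrogen-related receptors, in 11 of 69 (15.9%) against 4.61%, and the GC-rich GGGCGG of SP1 in 27 of 69 (39.1%) against 33.1%. In 62 promoters of cytosolic ribosomal protein genes the shares were 32.3% for the ETS letters, 58.1% for SP1, 4.84% for NRF1, 8.06% for YY1 and 3.23% for the estrogen-related receptor letters, above those of the OXPHOS promoters for ETS and SP1 and below them for the others. Both strands were searched and a promoter was counted once per motif. The NRF1 letters can overlap their own reverse complement, and a match describes the letters only. The 160 bases before the annotated start are shown for 4 genes that the comparisons below turn on, Sdhb, Ndufa13 and Ndufs6, which were called lower in Dox + ABT than in Veh, and Atp5me, which was called once the ribosomal protein share entered the fit. Capitals mark the 5 motifs above on either strand.
Sdhb (GRCr8 chr5:158547774-158547933, plus strand): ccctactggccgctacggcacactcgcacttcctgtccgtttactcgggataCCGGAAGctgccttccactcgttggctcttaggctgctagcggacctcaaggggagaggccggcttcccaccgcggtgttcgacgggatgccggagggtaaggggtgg
Ndufa13 (GRCr8 chr16:19560366-19560525, plus strand): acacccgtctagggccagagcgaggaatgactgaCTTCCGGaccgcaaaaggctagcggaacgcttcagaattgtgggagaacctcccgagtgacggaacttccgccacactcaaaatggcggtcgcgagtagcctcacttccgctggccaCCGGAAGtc
Ndufs6 (GRCr8 chr1:31797240-31797399, plus strand): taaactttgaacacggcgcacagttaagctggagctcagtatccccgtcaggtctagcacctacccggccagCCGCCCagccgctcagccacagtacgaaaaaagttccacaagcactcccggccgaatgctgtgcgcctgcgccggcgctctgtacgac
Atp5me (GRCr8 chr14:1464700-1464859, plus strand): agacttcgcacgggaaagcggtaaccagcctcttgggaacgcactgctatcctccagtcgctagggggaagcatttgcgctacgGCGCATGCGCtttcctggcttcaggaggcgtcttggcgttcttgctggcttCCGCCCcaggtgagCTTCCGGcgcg
Sdhb held 1 ETS core, Ndufa13 held 2, Ndufs6 held only the SP1 letters, and Atp5me held the NRF1 letters on both strands in overlap, the SP1 letters and an ETS core. None of the 5 motifs stood in the same stretch of Ndufa9 or Ndufv1, which were called in the same comparison as Sdhb, and Atp5pd was not matched.

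The mitochondrial mRNAs took a large and variable share of every library. The 13 genes held 6.11 to 17.1% of the summed normalized counts in Veh (median 12.9%), 7.03 to 12.99% in Dox (median 7.71%) and 6.05 to 16.2% in Dox + ABT (median 8.27%). The 84 nuclear members held 0.683 to 1.27% in Veh (median 1.06%), 0.954 to 1.20% in Dox (median 1.05%) and 0.973 to 1.19% in Dox + ABT (median 1.00004%). The ranges of the 3 groups overlapped for both genomes, and the nuclear share was close in its medians while the mitochondrial share had its highest median in Veh. In a bulk sample, fewer cells of a type and less RNA per cell cannot be told apart.

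The libraries also differed in the transcripts of cytosolic ribosomal proteins, and these moved with the OXPHOS genes. The 77 ribosomal protein genes held 0.620 to 2.06% of the counts in Veh (mean 1.42%), 0.840 to 1.79% in Dox (mean 1.21%) and 0.936 to 1.29% in Dox + ABT (mean 1.06%). The mean share differed by −0.359 percentage points between Dox + ABT and Veh (p = 0.0416, two-sided exact permutation test, Benjamini-Hochberg adjusted p = 0.125 over 3 comparisons). It differed by −0.206 between Dox and Veh (exact permutation p = 0.299, adjusted p = 0.299) and by 0.154 between Dox and Dox + ABT (exact permutation p = 0.273, adjusted p = 0.299). The other genes, members and ribosomal protein genes left out, were taken as deviations from the mean of each rat's own group. Their first principal component split the libraries at 0 into a larger kind of 15 libraries (4 Veh, 5 Dox and 6 Dox + ABT) and a smaller kind of 11 (6 Veh, 3 Dox and 2 Dox + ABT). A kind thus places a rat against its own group, and rats of 1 kind in different groups need not be alike. Veh 6 (ribosomal protein share 1.22%) is in the larger kind and Dox + ABT 3 (1.02%) in the smaller. The component ran from −46.2 to 40.6, and 4 Dox + ABT rats lay close to the split, Dox + ABT 3 at 0.70 in the smaller kind and Dox + ABT 1, 2 and 5 from −2.10 to −1.95 in the larger, so the split hardly separates these rats. Veh 11, at −46.2, is 1 of the 4 Veh rats of the larger kind. The smaller kind had more ribosomal protein transcript (1.02 to 2.06%, against 0.620 to 1.22%) and more mitochondrial mRNA (8.59 to 17.1%, against 6.05 to 13.04%). Its libraries were also deeper by estimate, with 16214300 to 24327900 reads (median 18788200), against 10166200 to 18714200 (median 14490300) in the larger kind. What made the kinds was not tested. Veh 11 stood apart, with the lowest ribosomal protein share (0.620%) and the lowest nuclear OXPHOS share (0.683%) of the 26 libraries, so the counts of members called are also given without this rat.

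**Figure D1:**
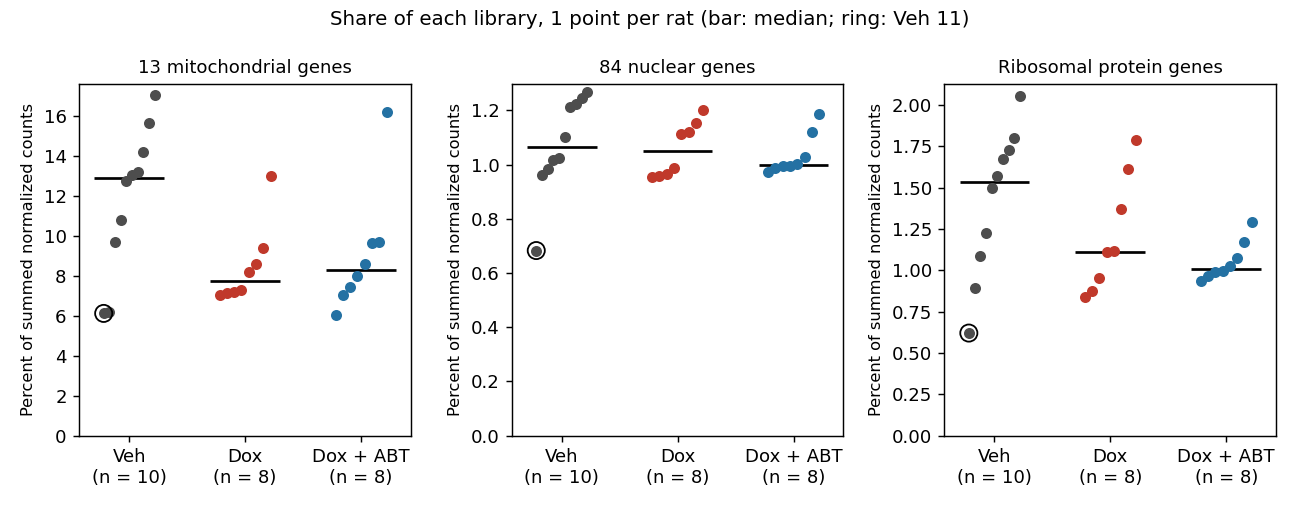
Share of the summed normalized counts of each library (y axes, percent) held by the 13 mitochondrial genes, the 84 nuclear OXPHOS genes and the ribosomal protein genes, 1 point per rat, with the median of each group as a bar and Veh 11 ringed. The groups overlap in all 3 panels, and Veh 11 has the lowest nuclear OXPHOS share (0.683%) and the lowest ribosomal protein share (0.620%) of all rats.

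Dox was compared with Veh to ask whether the chemotherapy changed the OXPHOS genes. Of the 95 members, 1 was called at p < 0.01, the study's threshold, against 2.87% of all 15595 genes tested. The called gene was Mt-co2, which encodes the copper-bearing subunit of complex IV that receives electrons from cytochrome c. Mt-co2 ran from 115636 normalized counts over a median of 286902 to 468848 in Veh, from 117802 over 155065 to 262361 in Dox, and from 115799 over 141649 to 289417 in Dox + ABT. All 8 Dox rats lay below the Veh median, yet the Dox range lay inside the Veh range, and 7 of 8 Dox + ABT rats lay below that median. The log2 fold change was −0.71 (SE 0.26, p = 0.00953, limma adjusted p = 0.340), and the call was lost when any of 20 single rats was left out.

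All 13 mitochondrial genes had a negative log2 fold change in Dox, from −0.72 to −0.43 with a median of −0.57, where the median of all tested genes was 0.00498, and 10 of 13 were negative under quantile normalization. The other mitochondrial genes of complex IV were close in size, with −0.50 (SE 0.19, p = 0.0170, limma adjusted p = 0.398) for Mt-co3 and −0.45 (SE 0.20, p = 0.0342) for Mt-co1, the subunit with the oxygen-binding centre. Mt-cyb, the cytochrome b of complex III, had −0.49 (SE 0.21, p = 0.0279), and Mt-atp6, the channel subunit of complex V, had −0.57 (SE 0.25, p = 0.0272). The 7 Mt-nd genes, the membrane core of complex I, ran from −0.72 for Mt-nd3 to −0.47 for Mt-nd6, and Mt-atp8 had −0.43. None of these 12 passed the threshold.

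The nuclear members had smaller differences in Dox: 74 of 82 were negative and 8 positive, with a median of −0.12 and a range of −0.42 to 0.28, and 0 were called by limma, with an unadjusted p under 0.05 for 2. The medians were −0.12 for complex I, −0.10 for complex II, −0.08 for complex III, −0.12 for complex IV and −0.10 for complex V, a narrow span beside the range of single genes. The lowest was Uqcrh, the acidic hinge subunit of complex III, at −0.42 (SE 0.19, p = 0.0352), and the highest was Cox4i2, the isoform of complex IV subunit 4 that is induced by low oxygen, at 0.28 (SE 0.32, p = 0.389). For Sdhb, the iron-sulfur subunit of complex II, the difference was −0.25 (SE 0.11, p = 0.0413). Every Dox rat lay below the Veh median for 8 of 82 nuclear (9.76%) and 4 of 13 mitochondrial members, against 3.39% of all tested genes. Without Veh 11 it was 12 of 82 nuclear and 4 of 13 mitochondrial members, against 4.604% of all genes. The members called numbered 5 without Veh 10 (3.91% of all genes), 5 without Dox 7 (4.24%) and 2 without Dox + ABT 4 (3.14%), which is near those shares. Without Veh 11, 9 of 95 members were called, all lower, against 4.53% of all genes: Uqcrh (−0.56), Mt-co2 (−0.83), Sdhb (−0.32), Ndufa3 (−0.42), Ndufs5 (−0.34), Mt-co3 (−0.58), Mt-atp6 (−0.69), Mt-cyb (−0.59) and 1 of the 2 gene IDs named Cox6b1 (−0.27), with limma adjusted p from 0.126 to 0.207. Within the larger kind of library, the only call was Ndufb6, higher in Dox (0.35, limma p = 0.00714, adjusted p = 0.201), against 4.67% of all genes, and the nuclear median was 0.14. Without Veh 11, which leaves 3 Veh rats in that kind, the nuclear median was 0.00470 and the mitochondrial median −0.48, and 4 members were called, against 4.4% of all genes: Ndufb3 (−0.45), Atp5me (−0.57), Mt-nd4l (−0.63) and Ndufs1 (−0.31), all lower in Dox.

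Dox + ABT was compared with Veh to ask where the rats given both agents stood. Of 95 members, 7 were called, all lower, which is close to the 7.84% of all genes called in this comparison and above the 3.95% called lower. They were Mt-co2 and 6 nuclear genes of complexes I, II and V: Ndufs6, Ndufa9, Ndufa13 and Ndufv1 of complex I, Sdhb of complex II and Atp5pd of complex V. The adjusted p of the 7 ran from 0.109 to 0.124 in limma, and 0 of 15595 genes had an adjusted p under 0.05.

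Ndufs6, a zinc-binding subunit at the junction of the complex I arms, ran from 30.1 over 60.3 to 90.4 normalized counts in Veh, from 36.0 over 48.0 to 64.4 in Dox, and from 21.9 over 36.5 to 53.5 in Dox + ABT. Its log2 fold change in Dox + ABT was −0.61 (SE 0.19, p = 0.00285). For Ndufa9, an accessory subunit near the quinone site, the values were 997 to 2315 with a median of 1949 in Veh, 1275 to 1931 with a median of 1569 in Dox, and 974 to 1414 with a median of 1254 in Dox + ABT. All 8 Dox + ABT rats lay below the Veh median for both genes, and 1 of them lay below every Veh rat for each. The log2 fold change of Ndufa9 was −0.43 (SE 0.14, p = 0.00393).

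Ndufa13, also known as GRIM-19, had 1050.4 to 3250.0 normalized counts (median 2630.1) in Veh, 1286 to 2922 (median 1829) in Dox and 1249 to 1959.6 (median 1631) in Dox + ABT, a log2 fold change of −0.53 (SE 0.185, p = 0.00778) for Dox + ABT. Ndufv1, the subunit that binds NADH and FMN, had 2327 to 4492 (median 3483) in Veh, 2384 to 4677 (median 3081) in Dox and 2156 to 3133 (median 2606) in Dox + ABT, a log2 fold change of −0.38 (SE 0.14, p = 0.00887). Dox 14 lay above every Veh rat for Ndufv1 and 2 Dox + ABT rats lay below every Veh rat, while the Dox + ABT range of Ndufa13 lay inside that of Veh. All 8 Dox + ABT rats lay below the Veh median for both genes.

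Sdhb ran from 1007 over 1775 to 2125 in Veh, from 1172 over 1336 to 1716 in Dox, and from 1201 over 1277 to 1553 in Dox + ABT, a log2 fold change of −0.32 (SE 0.11, p = 0.00882) for Dox + ABT. Atp5pd, the d subunit of the ATP synthase stalk, ran from 1029 over 2526 to 3041 in Veh, from 1330.0 over 1482 to 2892 in Dox, and from 1322 over 1426 to 1914 in Dox + ABT, a log2 fold change of −0.52 (SE 0.19, p = 0.00930). The Veh rats were spread widely for both, with Veh 11 the lowest, and the Dox + ABT rats lay within the lower part of that spread. Mt-co2 had a log2 fold change of −0.76 (SE 0.26, p = 0.00612) in Dox + ABT.

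Across the nuclear members, 69 of 82 had a negative log2 fold change in Dox + ABT, with a median of −0.19. The complex I median was −0.28, followed by −0.19 for complex V, −0.16 for complex II, −0.13 for complex III and −0.09 for complex IV. Members near the threshold were Uqcrc1, the core 1 protein of complex III (−0.39, SE 0.14, p = 0.0111), Atp5if1, the inhibitor of ATP hydrolysis by complex V (−0.39, SE 0.15, p = 0.0129), and Cox5b of complex IV (−0.41, SE 0.16, p = 0.0175). Uqcrc1 was also the nuclear member of complex III with the highest mean count, and the members with the highest mean in the other complexes had −0.30 for Ndufb8, −0.09 for Sdha, the flavoprotein of complex II, −0.34 for Cox4i1 and −0.19 for Atp5f1b, the catalytic beta subunit of complex V. All 8 Dox + ABT rats lay below the Veh median for 41 of 82 nuclear members (50%), against 10.9% of all tested genes, and for 0 of 13 mitochondrial members, where Dox + ABT 4 was high in each. Without Veh 11 it was 43 of 82 nuclear and 1 of 13 mitochondrial members, against 13.2% of all genes. The 13 mitochondrial genes ran from −0.90 for Mt-nd3 to −0.26 for Mt-co3 with a median of −0.60, all negative, and 9 of 13 were negative under quantile normalization.

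These counts moved with single rats. Without Veh 11, 37 of 95 members were called in Dox + ABT against Veh, all lower, against 13.7% of all genes, and they included all 7 named above; 32 were nuclear and 5 mitochondrial. The lowest limma adjusted p was then 0.0385, shared by Ndufa13 (−0.66), Ndufa9 (−0.51), Sdhb (−0.40), Ndufs6 (−0.71), Uqcrc1 (−0.48) and Atp5pd (−0.63). Without Dox + ABT 4, the rat with the most mitochondrial mRNA in its group (16.2%), 17 were called (11.7% of all genes), without Veh 10 it was 19 (11.9%), without Veh 5 it was 13 (9.94%) and without Dox + ABT 6 it was 1 (4.46%). It was 2 without each of Veh 1, Veh 2, Veh 3, Veh 9, Dox + ABT 3, Dox + ABT 5 and Dox + ABT 11, 3 without Veh 4 or Veh 12, and 4 without Dox 1 or Dox + ABT 12, where all genes called ran from 4.46 to 7.97%. Within the larger kind of library, 0 of 95 were called by limma (smallest unadjusted p 0.0105), against 1.08% of all genes, and the nuclear median was 0.14. Without Veh 11 in that kind, 0 were called by limma (smallest unadjusted p 0.0218) and the nuclear median was −0.01, with 39 of 82 positive, so the positive median rested on this rat. When the libraries were scaled to the counts outside the mitochondrial genes, which moved the median of all genes to 0.12, 0 members were called by limma (unadjusted p under 0.05 for 14), the nuclear median was −0.07 with 53 of 82 negative, and the mitochondrial median was −0.47. That scaling split the calls over all genes into 1519 higher and 128 lower, where the split was 606 and 616 in the values as deposited.

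Dox was compared with Dox + ABT to ask what ABT-263 changed in rats given Dox. Of the 95 members, 0 were called by limma, against 4.03% of all genes, with an unadjusted p under 0.05 for 2, and the count was also 0 without any single rat, Veh 11 included. The smallest p was that of Ndufa9, 0.34 higher in Dox on the log2 scale (SE 0.15, p = 0.0259, limma adjusted p = 0.323), and Atp5if1 was next in complex V with 0.33 (SE 0.15, p = 0.0422). The nuclear members had a median of 0.09, with 58 of 82 positive, and complex I was highest among them with a median of 0.14 and 30 of 35 positive. The mitochondrial genes had a median of 0.01, from −0.23 for Mt-co3 to 0.37 for Mt-nd5, with 8 of 13 positive. Scaled to the counts outside the mitochondrial genes, which moved the median of all genes to −0.09, the nuclear median was 0.01 with 42 of 82 positive, the mitochondrial median was −0.07 with 4 of 13 positive, and the calls over all genes split into 133 higher and 493 lower against 362 and 267. The same scaling split the calls between Dox and Veh into 198 higher and 203 lower, against 159 and 289. Both comparisons with Veh share the Veh rats, so their values stand side by side only as each group's distance from the same 10 rats.

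**Figure D2:**
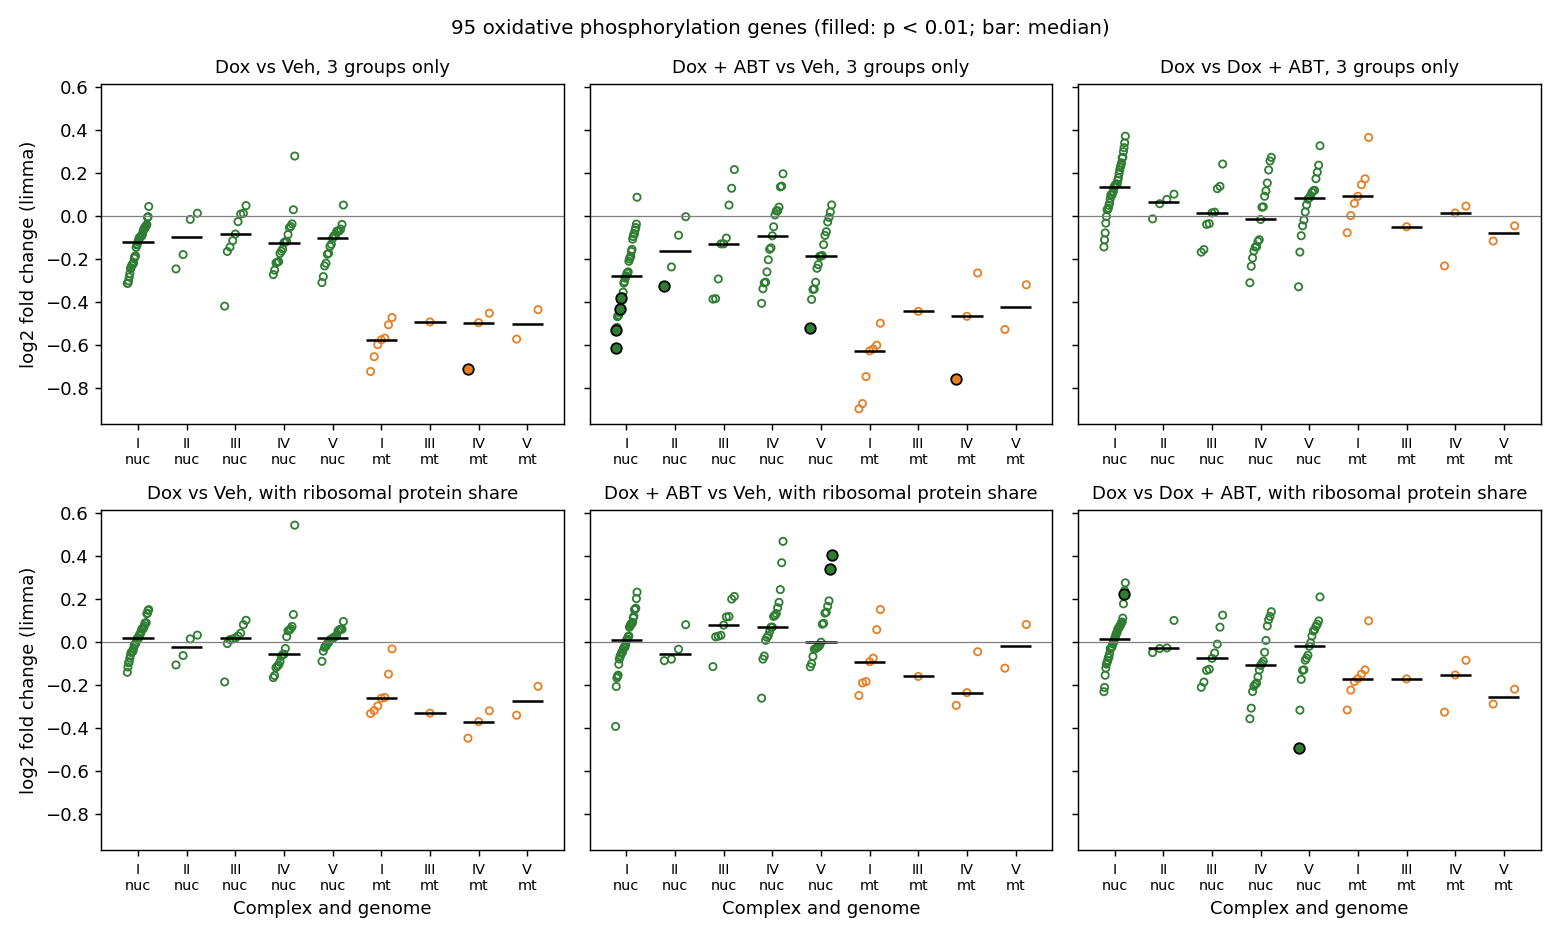
log2 fold change (y axis, limma) of the 95 tested members by complex and genome (x axis; nuc, nuclear; mt, mitochondrial) in the 3 comparisons, fitted with the groups alone (top) and with the ribosomal protein share of each library added (bottom); filled points have p < 0.01 and bars are medians. The medians of the mitochondrial genes lie below those of the nuclear ones in both comparisons with Veh in the top row (−0.57 and −0.60, against −0.12 and −0.19), while single nuclear genes overlap them, and the nuclear medians move to 0.02 and 0.03 in the bottom row.

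The ribosomal protein share was then added to the fit as a covariate, and its slope gives the change of each gene, on the log2 scale, per percentage point of share among rats of the same group. The slope was called, and positive, for 75 of 95 members, against 35.4% of all genes called in either direction and 19.2% called with a positive slope. All 13 mitochondrial genes and 62 of 82 nuclear genes were called, although under quantile normalization 5 mitochondrial genes were called with a positive and 1 with a negative slope. The median slope was 1.46 for the mitochondrial and 0.71 for the nuclear members, where the median of all genes was 0.02. The slope was called for 31 of 35 nuclear genes in complex I, 2 of 4 in complex II, 6 of 9 in complex III, 8 of 17 in complex IV and 15 of 17 in complex V.

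The 7 Mt-nd genes had the steepest slopes of all members, from 1.46 for Mt-nd4 to 2.14 for Mt-nd6 (SE 0.26), above the 0.61 for Mt-co3 to 1.29 for Mt-co2 of the other mitochondrial genes. Mt-nd6, the only mRNA of the opposite strand of the mitochondrial genome, ran from 8681 over 25048 to 53384 normalized counts in Veh, from 8493 over 12386 to 58449 in Dox and from 9454 over 15888 to 34598 in Dox + ABT. Whether counting used strand is not given, so reads of the other strand may be among the Mt-nd6 counts. Within the mitochondrial mRNA, the Mt-nd genes together made up 20.4 to 37.0% in the smaller kind of library and 18.3 to 26.1% in the larger kind. The medians were 29.5% and 22.4% for the kinds, and 25.9% for Veh, 22.1% for Dox and 25.004% for Dox + ABT. How the kinds and the groups share this difference was not tested.

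Among nuclear members the slope was steepest for Ndufb4 (1.30, SE 0.11) and Cox6c (1.30), and Atp5pd had the smallest p (1.16, SE 0.08, p = 3.63e-14, limma adjusted p = 2.18e-11). Other members were not called: the slope was 0.01 (SE 0.09) for Sdha, 0.03 for Atp5f1a, the alpha subunit of complex V, 0.07 for Ndufs1, the largest subunit of complex I, and 0.08 for Uqcrc2, the core 2 protein of complex III, and it was −0.27 for Uqcr11 and −0.16 for Ndufa4l2. Sdhb of the same complex as Sdha had a slope of 0.68 (SE 0.07). Sdha lay between 3269.8 and 4200.4 normalized counts in the Veh rats, between 2969 and 4505 in the Dox rats and between 3147 and 3769 in the Dox + ABT rats, a narrow spread beside that of Atp5pd. The difference between the slopes of these genes was not tested.

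The slope was called for 4 of 4 red cell genes (2.68 to 3.26), and their summed level ran from 2327 to 25997 normalized counts in Veh, from 3608 to 128552 in Dox and from 3172 to 11576 in Dox + ABT. Of 5 granule cell markers, the slope was called negative for Prox1 (−0.70) and Rfx3 (−0.91) and positive for C1ql2 (0.44), and all 5 markers were present in every group. Of the other marker lists reported here, the slope was called for 3 of 5 astrocyte markers (Slc1a3 −0.76, Gja1 −0.64 and Gfap 0.66), 2 of 5 microglia markers (Csf1r 0.68 and Aif1 0.84), 1 of 5 neuron markers (Rbfox3 0.94), 1 of 3 choroid plexus markers (Aqp1 2.02) and 0 of 4 endothelial markers by limma (smallest unadjusted p 0.109). The part of these cells in the OXPHOS slopes was not tested.

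Within the kinds of library fewer slopes were called. Among the 15 libraries of the larger kind, 59 of 95 members were called, all positive, against 10.3% of all genes, 57 of them nuclear and 2 mitochondrial. Without Veh 11 this became 29, against 11.3% of all genes, 28 nuclear and 1 mitochondrial. Among the 11 libraries of the smaller kind, 2 were called, both nuclear (Ndufb3 and Cox6c, limma adjusted p = 0.99982), against 0.532% of all genes, and 93 of 95 slopes were positive. Without Veh 11, 60 were called, against 29.3% of all genes, and without the 2 rats farthest from the median share, Veh 1 and Veh 2, it was 69, against 31.4%.

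**Figure D3:**
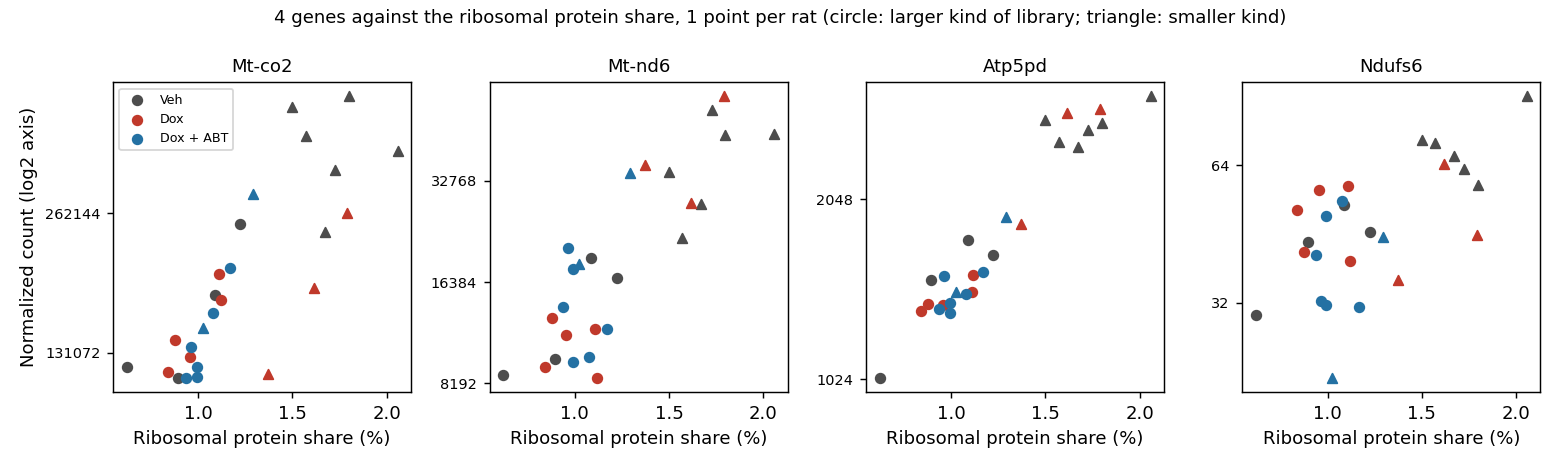
Normalized count (y axis, log2 scale) of Mt-co2, Mt-nd6, Atp5pd and Ndufs6 against the ribosomal protein share of the library (x axis, percent), 1 point per rat, coloured by group, with circles for the larger and triangles for the smaller kind of library. Atp5pd follows the share closely in all 3 groups, Veh 11 is the lowest point for Atp5pd at a share of 0.620%, and no Dox + ABT rat has a share above 1.29%.

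**Figure D4:**
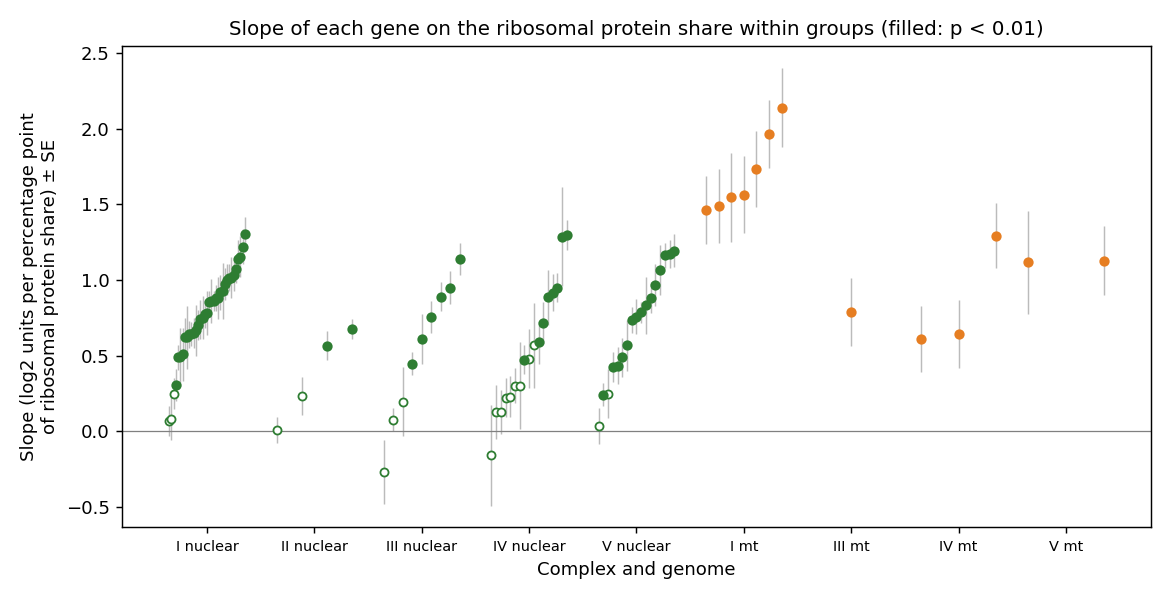
Slope on the ribosomal protein share (y axis, log2 units per percentage point, ± SE) of the 95 tested members by complex and genome (x axis), with filled points for p < 0.01. The 7 Mt-nd genes lie highest, from 1.46 to 2.14, and Sdha (0.01), Atp5f1a (0.03) and Ndufs1 (0.07) lie near 0.

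With the share in the fit, the group differences of the nuclear members were near 0. The share comes from the same libraries, after treatment, and differed by −0.359 percentage points between Dox + ABT and Veh (exact permutation p = 0.0416, adjusted p = 0.125). A treatment effect that moves with the share and a difference between libraries therefore cannot be told apart in this fit. In Dox against Veh, 0 members were called by limma (smallest unadjusted p 0.0160, for Mt-co2), against 2.65% of all genes. The nuclear median was 0.02, with 48 of 82 positive, and the mitochondrial median was −0.32, with 13 of 13 negative, from −0.45 for Mt-co2 (SE 0.17) to −0.03 for Mt-nd6. In Dox + ABT against Veh the nuclear median was 0.03 and the mitochondrial median −0.12, with 10 of 13 negative. The 2 calls there, against 1.6% of all genes, were higher: Atp5me and Atp5md, small membrane subunits of complex V that take part in its dimers. In Dox against Dox + ABT, 2 were called, against 4.71% of all genes: Atp5me lower in Dox and Ndufa9 higher in Dox. Without Veh 11 these were joined by Atp5md, lower in Dox (−0.27, limma p = 0.00626, adjusted p = 0.199), against 4.34% of all genes.

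Atp5me ran from 173 over 495 to 623 normalized counts in Veh, from 225 over 331 to 644 in Dox and from 354 over 423 to 624 in Dox + ABT. The groups overlapped, and the lowest Dox + ABT rat stood above the Dox median. With the share, the log2 difference of Atp5me was 0.40 (SE 0.14, p = 0.00876, limma adjusted p = 0.586) between Dox + ABT and Veh and −0.49 (SE 0.14, p = 0.00147, limma adjusted p = 0.126) between Dox and Dox + ABT, while without the share it was 0.02 (SE 0.21) and −0.33 (SE 0.22). Without the share, Atp5me was also called lower in Dox than in Dox + ABT within the larger kind (−0.60, limma p = 0.00662) and there without Veh 11 (−0.60, limma p = 0.000175). A block on rat numbers gave −0.77 for Atp5me (limma p = 0.00150), and −0.72 in Dox against Veh (limma p = 0.00117). The numbers do not pair the rats (median correlation −0.012 between same-numbered rats), so no conclusion is drawn from the block. Atp5md had 183 to 770 (median 527) in Veh, 342 to 643 (median 415) in Dox and 361 to 580 (median 512) in Dox + ABT, and its difference between Dox + ABT and Veh was 0.34 (SE 0.12, p = 0.00919) with the share and −0.01 without it. Ndufa9 was 0.22 higher in Dox than in Dox + ABT with the share (SE 0.08, p = 0.00861, limma adjusted p = 0.203). Without Veh 11, the calls between Dox + ABT and Veh numbered 0 by limma (smallest unadjusted p 0.0146), and they were also 0 without each of Veh 4, Veh 12, Dox 7, Dox + ABT 2, Dox + ABT 4, Dox + ABT 5 and Dox + ABT 6. Without Veh 11, Uqcrh was then called lower in Dox than in Veh (−0.27, limma p = 0.00339, adjusted p = 0.344).

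Several subunits of complex IV have isoforms that differ between tissues or with oxygen supply. Cox4i1, the common isoform of complex IV subunit 4, lay between 4575 and 11351 normalized counts in the Veh rats, between 5719 and 10345 in the Dox rats and between 5710.1 and 9369 in the Dox + ABT rats. Cox4i2 had medians of 29.2, 33.7 and 32.7, and its highest value, 91.0, was in Dox 14. Cox6a1, the non-muscle isoform, had medians of 5673, 5058 and 4441 in Veh, Dox and Dox + ABT, while the muscle isoforms Cox6a2 and Cox8b had medians of at most 3.12 and 2.58. Cox7a1, another muscle isoform, had medians of 17.0, 15.9 and 16.5, and Cox6b2, known from testis, had 17.3, 12.2 and 17.2. Cox8a had log2 fold changes of −0.12 (SE 0.14) in Dox and 0.02 (SE 0.14) in Dox + ABT, and the 2 gene IDs named Cox6b1, whose reads may be divided between near-identical copies, had −0.21 and −0.15 in Dox. Ndufa4 had 0.03 (SE 0.12) in Dox and 0.14 (SE 0.12) in Dox + ABT, and its paralog Ndufa4l2, induced by low oxygen, had −0.09 (SE 0.26) and −0.20 (SE 0.26). None of the tested isoforms was called between groups by limma with all rats, with or without the share, while without Veh 11 Cox4i1 was called lower in Dox + ABT than in Veh (−0.44) and the Cox6b1 gene ID given above lower in Dox. Cox6a2 and Cox8b did not pass the filter and were not tested. Cox7a2 was not analysed here.

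The genes that build, feed and regulate the chain were looked at beside the subunits. Of 48 tested assembly factors, 1 was called in Dox against Veh, 1 in Dox + ABT against Veh and 0 in Dox against Dox + ABT by limma (smallest unadjusted p 0.0244), each share below the background given above. The first was Cox10, which takes part in making the heme of complex IV, at −0.21 (SE 0.07, p = 0.00585), and the second was Ecsit, an assembly factor of complex I, at −0.42 (SE 0.15, p = 0.00912). Next in p were Ndufaf5 (−0.34) in Dox, Cox10 (−0.18) in Dox + ABT, and Pet100 (−0.21) and Coa5 (−0.18) between Dox and Dox + ABT. With the share in the fit both calls were lost (smallest p 0.0122 and 0.0380), and Timmdc1, an assembly factor of complex I, was called lower in Dox than in Dox + ABT (−0.18, SE 0.06, limma p = 0.00966, adjusted p = 0.209). The slope on the ribosomal protein share was called in 18 of 48, near the 35.4% of all genes, with 17 positive against 19.2%, and was 0.94 for Ecsit and 1.004 for Uqcc3, an assembly factor of complex III.

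Of 21 other subunits and electron carriers, 1 was called, near the 4.03% of all genes, Coq9, which takes part in coenzyme Q synthesis, at −0.25 in Dox against Dox + ABT (SE 0.07, p = 0.00164, limma adjusted p = 0.166). The others with the smallest p were Coq9 (−0.16) and Etfa (−0.12) in Dox, Etfb (−0.42) and Coq2 (0.29) in Dox + ABT, and Coq7 (0.42) between Dox and Dox + ABT. With the share in the fit, Coq9 was again the only call (−0.25, SE 0.07, limma p = 0.00113). The slope was called in 9 of the 21, 6 of them positive, against the same 35.4%, with 0.89 for Etfb and 1.11 for Coq7. Of 20 regulators of respiratory gene transcription, 0 were called by limma in the 3 comparisons without the share (smallest unadjusted p 0.0206). With the share, Tfb2m, a factor of mitochondrial transcription, was called higher in Dox than in Veh (0.25, SE 0.08, limma p = 0.00344, adjusted p = 0.280), and Ppard, a nuclear receptor, lower in Dox + ABT than in Veh (−0.26, SE 0.09, limma p = 0.00547, adjusted p = 0.586). Without the share, Tfb2m (0.21) and Pprc1 (0.16) had the smallest p in Dox, Gabpb1 (0.21) and Nrip1 (0.31) in Dox + ABT, and Gabpa (−0.22) and Hif1a (−0.16) between Dox and Dox + ABT. The slope was called in 8 of 20, near the background, 6 of them negative. The slope of Ppard was −0.37 and that of Ppargc1a, a coactivator of mitochondrial biogenesis, was −0.57 (SE 0.16), opposite in sign to the slopes called among the subunits.

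Of 10 carriers and uncouplers, 3 were called in Dox + ABT against Veh, where 7.84% of all genes were, and 0 with the share in the fit (limma, smallest unadjusted p 0.0858). Slc25a4, the adenine nucleotide translocator that exchanges ADP for ATP, was lower (−0.34, SE 0.11, p = 0.00497), Slc25a5, its paralog, was lower (−0.28, SE 0.10, p = 0.00912), and Slc25a27, also called UCP4, was higher (0.50, SE 0.17, p = 0.00647). None was called in Dox against Veh (smallest unadjusted p 0.169) or in Dox against Dox + ABT (0.0648) by limma without the share, nor with it (0.237 and 0.0872). Slc25a27 (0.24) and Slc25a3 (−0.12) had the smallest p in Dox, and Slc25a6 (0.35) and Slc25a4 (0.21) between Dox and Dox + ABT. The slope was called in 7 of 10, 5 of them positive, against 35.4% of all genes in either direction and 19.2% with a positive slope. Among the channels of the outer membrane it was 0.82 for Vdac3, 0.47 for Vdac2 and −0.52 for Vdac1.

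Markers of the cells a DG sample can hold moved in part with the groups. In Dox against Veh, where 2.87% of all genes were called, 3 of 5 astrocyte and 3 of 5 microglia markers were called, all lower, and in Dox + ABT against Veh 1 of 5 granule cell markers (C1ql2, −0.46), 1 astrocyte and 1 microglia marker were called, all lower, against 7.84%. The astrocyte markers did not move as 1: 2 of 5 were positive in Dox (at most 0.06) and 3 of 5 in Dox + ABT (median of the list 0.02). Of the granule cell markers, 2 of 5 were positive in Dox + ABT, while all 5 microglia markers were negative in both comparisons. In Dox against Dox + ABT, 1 of 5 neuron markers was called higher (Rbfox3, 0.61) and 1 astrocyte marker (Aqp4, −0.45) lower, against 4.03%. None of 4 endothelial (smallest unadjusted p 0.0109) or 3 choroid plexus markers (0.0147) was called between groups by limma, and the summed choroid plexus markers ran from 14.5 to 350.3 over all rats. The summed astrocyte markers ran from 36226 to 56558 normalized counts in Veh, from 29841 to 37275 in Dox and from 34806 to 50607 in Dox + ABT. Without the share, 0 of 4 red cell genes were called between Dox and Veh by limma (0.79 to 1.21, smallest unadjusted p 0.0372). With the share in the fit, 4 of 4 were called higher in Dox than in Veh (1.44 to 1.76), against 2.65% of all genes. In that fit 3 of 5 astrocyte and 2 of 5 microglia markers were still called lower in Dox. The granule cell, astrocyte and microglia calls in Dox + ABT against Veh were lost with the share. The part of these cells in the OXPHOS differences was not tested.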

How the data were processed

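The deposited values are a signal, normalized read counts per transcript row for 26 libraries: reads of an Ion Proton sequencer were mapped by the authors with STAR 2.5.3a (build rn6), who divided the counts in Partek Flow by each library's Median Ratio factor, per the labels and the study's methods. Whether counting used strand is not given in the sources used here. Of 24012 rows, those sharing an Ensembl gene ID were added up (6 members had several rows, at most 4), and every column was mapped to a rat. Low values were whole multiples of 1 read (within 0.02) for 75.5 to 78.8% of genes with 1 row, too few to recover reads, so no count test was run, and depth was estimated from the value of 1 read, so the precision from counting is approximate.

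Group differences came from limma 3.58.1 under R 4.3.3 (lmFit and contrasts.fit, then eBayes with a variance trend), two-sided, on log2(value + 1). The fit held 15595 genes whose mean reached 5 and all 26 rats in 3 groups, and fold changes are on that scale. Genes were called at p < 0.01, with Benjamini-Hochberg adjustment over all tested genes. The ribosomal protein share of each library, centred, was the covariate of a further fit. The fit was tested on simulated data. Rats are separate animals, with 1 library each; rats of equal number in different groups did not deviate together (median correlation −0.012 over 16 pairs), so numbers were not used as pairs.

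Members were the 97 gene IDs whose names match those of OXPHOS subunits; Ndufv3, Cox6b1 and Uqcrb each name 2 gene IDs and may share reads with copies. Named genes were every mitochondrial member, every member called, per complex and comparison the nuclear member with the smallest p and the one with the highest mean, 12 isoforms, and 2 genes per pathway list and comparison; genes at the ends of a range, called under an alternative or shown for a promoter, and the markers, were named after their values were seen. The members and all lists were chosen with earlier results of these data known. The result of 1 marker list is not reported here. Kinds of library were split at 0 on the first principal component of within-group deviations over 13500 genes whose mean reached 20 (27.7% of the variance), without members and ribosomal protein genes. Alternatives were other pseudocounts (0.5 and 5), filters, scalings, covariates, weights, blocks and subsets of rats. Coordinates are RefSeq GRCr8. No gene lengths of rn6 were at hand, so counts of different genes set side by side are not corrected for length, and differences in level between genes were not tested. Figures were drawn with matplotlib 3.10.9.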

Additional observations from a re-analysis of the deposited data

Results flagged for a closer look

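Among 126 tests of a lowest or highest rat within a group (Dixon's test), 22 values stood apart, where chance gives about 1 in 20.

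Dox + ABT 4 gave 14 of them. Its mitochondrial genes held 16.2% of the counts, where the other rats of the group reached 9.68%. It had the highest values of its group for Mt-nd1 (210681), Mt-nd2 (171986), Mt-nd3 (22630, from 22629.5), Mt-nd4 (189760), Mt-nd4l (24293), Mt-nd5 (100420), Mt-nd6 (34598), Mt-cyb (302030), Mt-co1 (636826), Mt-co3 (277348), Mt-atp6 (403661) and Mt-atp8 (54295), and for the nuclear gene Atp5pd (1914), all in normalized counts.

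Dox 7 gave 4. Its mitochondrial genes held 12.99% of the counts, where the other Dox rats reached 9.39%, and it had the highest Dox values of Mt-nd3 (28447), Mt-nd4 (186087) and Mt-atp6 (298197). Veh 11 had the lowest share of nuclear members in Veh, 0.683%, where the next rat had 0.961%. Single genes stood apart in Dox 14 (Ndufv1, 4677, the highest), Dox 5 (the Cox6b1 gene ID ENSRNOG00000034161, 411, the lowest) and Dox 10 (Cox6b2, 24.7, the highest).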

How the results depend on the processing

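Between Dox and Veh, where 1 member was called, the count was 0 with the ribosomal protein share, the share outside mitochondrial genes or the kind of library as covariate, with a pseudocount of 5, no filter, quantile normalization or the 2 groups alone, by limma in each case (unadjusted p under 0.05 for 10 as reported). Those fits called 315 to 488 of all genes tested (15595, or 17910 with no filter). The count of members was 53 with array weights (20.2% of all genes). Leaving out 1 rat gave 0 to 9 members, where 266 to 707 of all 15595 genes were called. Between Dox + ABT and Veh, where 7 were called, all lower, the count was 2 with either share (with the ribosomal protein share both were higher and none of the 7), 1 with the kind, 0 within the larger kind or with scaling outside mitochondrial genes, 3 under quantile normalization and 60 with array weights (34% of all genes). Leaving out 1 rat gave 1 to 37. Between Dox and Dox + ABT, 0 calls became 2 with either share (4.71 and 4.99% of all genes), 1 within the larger kind (6.03%), 1 with the 2 groups alone (4.51%) and 2 with array weights (10.3%). Leaving out 1 rat gave 0 throughout, where 419 to 787 of all 15595 genes were called. The 75 slopes called became 2 within the smaller kind of 11 libraries and 60 to 77 without 1 rat. They became 59 to 77 under the others, except the larger kind without Veh 11, whose lower count is given below. With the share in the fit, leaving out 1 rat gave 0 to 1, 0 to 3 and 1 to 3 calls in the 3 comparisons. Of all 15595 genes, 280 to 510, 103 to 475 and 502 to 1058 were called there. Array weights with the share gave 0, 1 and 8 (1.58, 4.26 and 11.7% of all genes).

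The replicate block on rat numbers gave 8, 19 and 1 calls in the 3 comparisons, where 4.91, 7.57 and 2.58% of all genes were called. The numbers do not pair the rats, since same-numbered rats had a median correlation of −0.012 (−0.222 to 0.434). Over the 8 called values and 14 alternatives, 63 of 112 kept direction and threshold, 48 lost the threshold and 1 turned, Ndufa9 between Dox + ABT and Veh, at 0.00501 within the larger kind and −0.09 there without Veh 11. Within the larger kind without Veh 11, the calls numbered 4, 0 and 2 in the 3 comparisons (4.4, 1 and 6.26% of all genes) and 29 for the slope (11.3%). The cause of these changes was not tested. The subsets by kind for the slope or without Veh 11, the fits without 1 rat or with weights that include the share, and the values without Veh 11 set beside the counts (including the rats below the Veh median) were chosen after seeing the data. Depth was known only by estimate, so what it limits was not measured.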
